A study of Homo sapiens with 8 samples.

Results

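Metallothionein genes and the genes that work with them in zinc handling were followed over 8 arrays of MDA-MB-231 cells. The list held 10 genes, and a gene was measured where a row of the table carried its symbol alone. That left 9 of the 22109 genes tested: the metallothionein genes MT1E, MT1F, MT1G, MT1H, MT1M, MT1X and MT2A, the transcription factor gene MTF1 and the zinc exporter gene SLC30A1. MT1A had no such row and was not analysed here. Rows were to be chosen by the highest mean over the 8 arrays; each of the 9 had 1 row, so that measured value decided nothing. The list itself was drawn up with earlier results of these arrays known.

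MDA-MB-231 is an established line of triple-negative breast cancer cells from a pleural effusion, grown here in high-glucose medium with serum. The arrays held 3 samples labelled as controls without treatment, 3 of a low group and 2 of a high group, all from flasks collected at 24 h. According to the titles and the treatment protocol the treated flasks received wild yam root extract, made up in ethanol and diluted in a salt solution, at 15 µg/mL (low) or 30 µg/mL (high), doses described as sublethal. The source names of the same samples differ. They state 128 µg/mL of a Boswellia serrata extract in the low group, and in the high group 46 µg/mL of the compound 3-O-acetyl-β-boswellic acid. What the cells received is therefore unsettled, and "low" and "high" are used as names of groups. No label says that the controls were given ethanol, or that the replicates of a group were separate cultures, so p-values measure only the spread between these samples.

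Metallothioneins are small proteins rich in cysteine that bind zinc, copper and cadmium in clusters of thiolates. Free zinc in the cell is sensed by the zinc-finger factor MTF1, which binds metal response elements in the promoters of metallothionein genes and of SLC30A1, whose product (ZnT1) exports zinc across the plasma membrane. Zinc, cadmium, oxidants and glucocorticoids are known inducers of metallothioneins. The metallothionein genes are near-identical in sequence, so an array probe can pick up RNA of several of them and the value of any single metallothionein is uncertain.

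The values are log2 expression as deposited. Within a group, pairs of arrays had correlations of 0.972 to 0.994 over genes, and the median of all tested genes lay between 2.68 and 2.83 on every array. Control 3, low 3 and high 2 had the lowest 75th percentiles of their groups, at 4.54 to 4.73 in these 3 arrays, and control 3 and low 3 had array weights of 0.310 and 0.373 where the other arrays had 0.739 to 2.66. The labels name no batch. Of 7 mesenchymal markers of the line, 6 had values from 5.47 to 10.19 on all arrays, and the seventh, SPARC, 1.80 to 2.30. Of 6 measured luminal and receptor genes thought to be low in this line, ESR1 and PGR had values of 1.17 to 2.18, GATA3 and CDH1 2.44 to 3.33, EPCAM 4.402 to 5.583 and KRT19 7.195 to 7.945, so the last 2 were not low here, and the leukocyte, endothelial and erythroid markers measured had 0.87 to 2.63. No marker was called in any comparison. The file holds no measure of background, so a value near 1 may be no more than the background.

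In the high group 3 metallothionein genes rose against control: MT1E by 2.71 ± 0.34 on the log2 scale (SE; 2 against 3 arrays), MT1F by 1.92 ± 0.26 and MT1M by 1.82 ± 0.18. For MT1E this is a 6.52-fold and for MT1F a 3.79-fold difference on the deposited scale. The MT1F controls, at 2.63 to 2.91, lay near the array medians of 2.68 to 2.83, so background may be part of the values behind that fold. For MT1M no fold is given, since its control values may lie at the background. MT1X, MT2A, MT1G, MT1H, SLC30A1 and MTF1 did not pass. Thus 3 of 9 members were called higher and none lower, where 0.425% of all 22109 genes were called higher and 0.389% lower (limma, adjusted p under 0.05 over all genes). The median difference of the 9 members was 0.67, and that of all genes was -0.12. In cultures measured in bulk, more RNA per cell and more cells holding the RNA cannot be told apart.

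MT1E, which encodes a metallothionein of the MT1 group, stood at 3.48, 4.75 and 3.85 in controls 1 to 3, at 5.25, 5.39 and 4.67 in low 1 to 3, and at 6.94 and 6.53 in high 1 and 2. The high arrays lay 1.78 above the highest control, and 1 control lay above the lowest low array. The high against control difference had a 95% interval of 1.96 to 3.45 and an adjusted p of 0.00615. MT1F, another member of that group, had 2.91, 2.85 and 2.63 in the controls, 3.89, 3.85 and 3.31 in the low arrays, and 4.29 and 5.15 in the high arrays. The 3 groups of MT1F did not overlap, and its high against control difference had an interval of 1.34 to 2.50 (adjusted p = 0.00905).

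MT1M, also of the MT1 group, had 1.38, 1.34 and 1.12 in the controls, 1.50, 1.29 and 1.14 in the low arrays, and 3.24 and 2.96 in the high arrays. Its low arrays overlapped the controls, while the high arrays lay 1.58 above the highest control. The interval of the high against control difference was 1.42 to 2.22 (adjusted p = 0.00217), and the gene stood at place 7 of 22109 by p in that comparison. The control and low values of MT1M are near 1 and may lie at the background of the array.

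**Figure D1:**
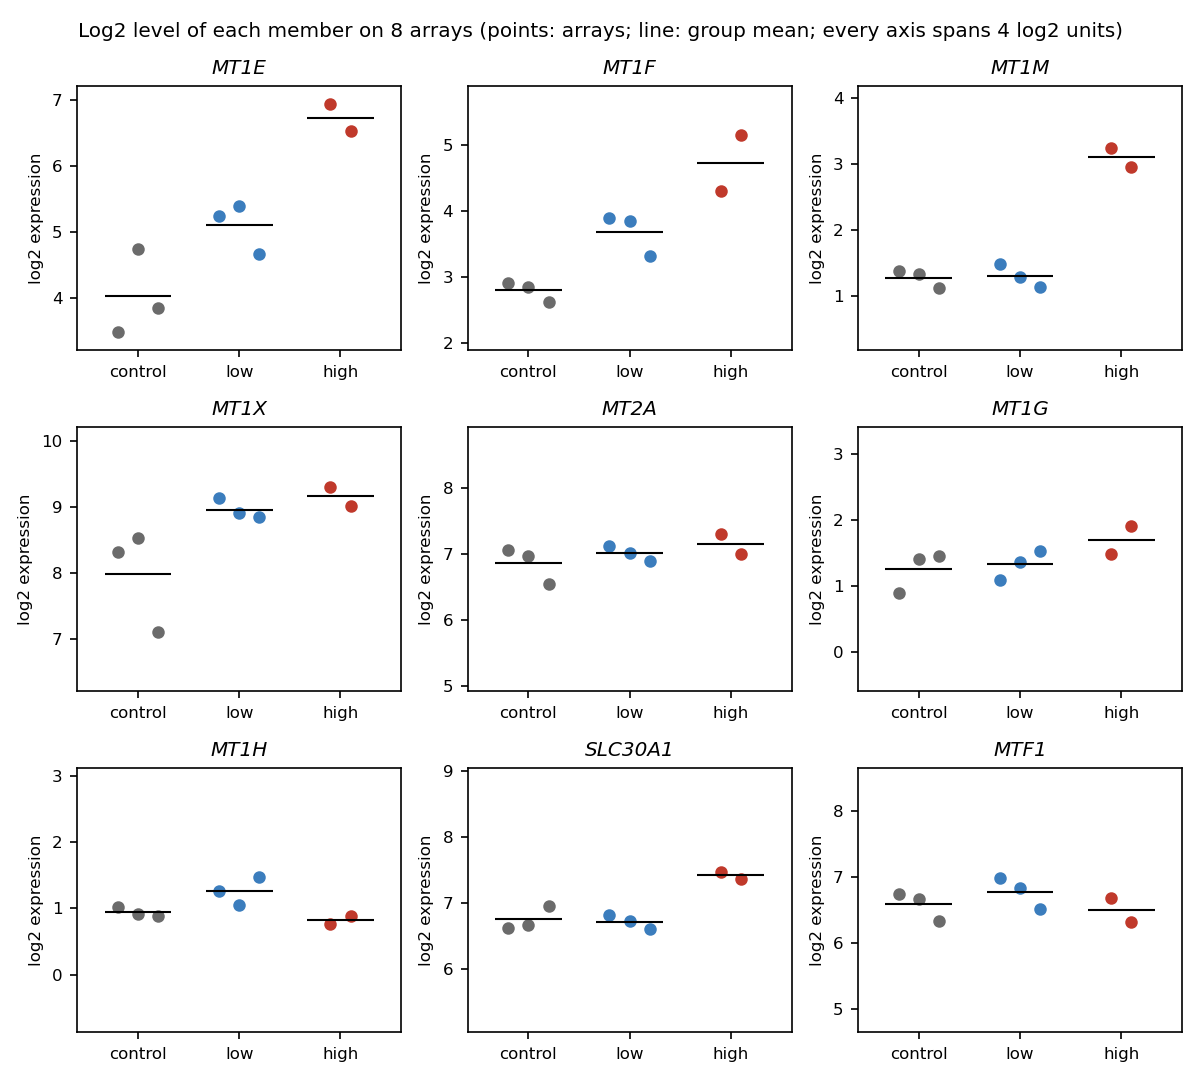
Log2 expression (vertical axes, each spanning 4 log2 units) of the 9 measured members in control, low and high samples (horizontal axes); points are arrays and lines are group means. The group means of MT1E and MT1F rise from control to low to high, though low 3 of MT1E lies below control 2. For both genes only high against control passed. MT1M stands at 2.96 and 3.24 in the high arrays and between 1.12 and 1.50 elsewhere, and MT2A spans 6.54 to 7.30 over all arrays.

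MT1X, whose row had values of 7.11 or more on every array, did not pass in the high group although its high arrays did not overlap the controls. It had 8.31, 8.53 and 7.11 in the controls, 9.13, 8.90 and 8.84 in the low arrays, and 9.31 and 9.02 in the high arrays. Control 3 was more than 1 log2 unit below the other controls. The high against control difference was 1.18 ± 0.34 (95% interval 0.42 to 1.93, adjusted p = 0.158), and 0.74 without control 3 (adjusted p = 0.0534).

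MT2A, the gene of the metallothionein 2 isoform, is known as a major metallothionein transcript in many human cells. It had 7.06, 6.97 and 6.54 in the controls, 7.12, 7.02 and 6.89 in the low arrays, and 7.30 and 7.00 in the high arrays. The groups overlapped, and the high against control difference of 0.29 ± 0.20 had an interval of -0.15 to 0.73 (adjusted p = 0.541). MT1G had values from 0.90 to 1.46 in the controls, 1.09 to 1.53 in the low arrays and 1.49 to 1.92 in the high arrays, with a difference of 0.45 ± 0.23 for high against control. MT1H lay between 0.77 and 1.48 on all 8 arrays and had a difference of -0.12 ± 0.18 for high against control. The sign of that MT1H difference turned with a common 75th percentile, which gave 0.07. Both of these rows lay below the median of all genes on every array, so an absence of change could not be told from an absence of signal.

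SLC30A1, the zinc exporter gene, was higher in both high arrays than on any other array without passing the test. It had 6.62, 6.67 and 6.95 in the controls, 6.81, 6.73 and 6.61 in the low arrays, and 7.47 and 7.36 in the high arrays. The high against control difference was 0.67 ± 0.17 with an interval of 0.29 to 1.04 (adjusted p = 0.115). It passed with quantile normalization (0.88, adjusted p = 0.0257) and without control 3 (0.77, adjusted p = 0.0315), and also with array weights (0.74, adjusted p = 0.0276). MTF1, the zinc sensor itself, ranged from 6.34 to 6.75 in the controls, from 6.52 to 6.98 in the low arrays and from 6.31 to 6.69 in the high arrays, and its high against control difference of -0.08 ± 0.21 did not pass (interval -0.54 to 0.375).

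Over the 9 members, the high and control arrays did not overlap in 6 with high above and in 1, MT1H, with high below. Among all genes these shares were 7.07% and 22.9%. At an unadjusted p under 0.05 the count was 5 of 9 members higher and none lower, where 3.03% of all genes were higher and 11.4% lower. The calls of MT1E and MT1F ended when a high array was left out, which leaves 1 high array that is assumed to vary like the other groups: MT1E had adjusted p-values of 0.0915 without high 1 and 0.0666 without high 2, and MT1F 0.0978 without high 2 (difference 1.50). MT1F also missed the threshold over all rows of the table (0.0528). MT1M was called under all 17 alternatives that tested it, with differences of 1.68 to 2.01.

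**Figure D2:**
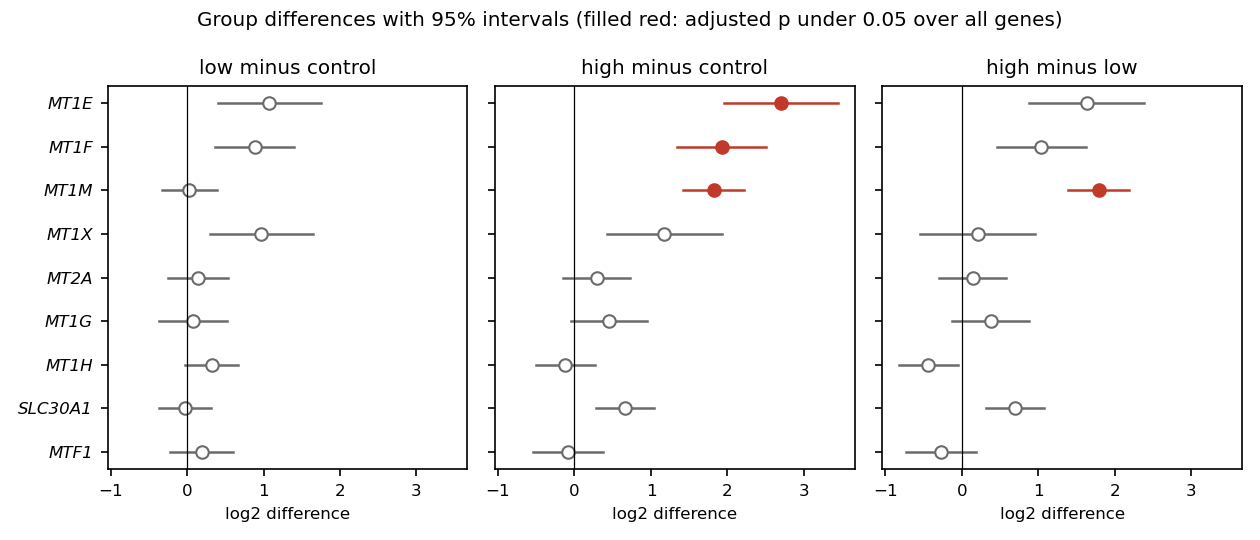
Log2 differences (horizontal axes) of each member with 95% intervals for low minus control, high minus control and high minus low; filled red points passed an adjusted p of 0.05 over all genes. MT1E, MT1F and MT1M passed in high minus control, MT1M alone in high minus low, and no member in low minus control, all in the fit without pairing.

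In the low group no member passed against control by limma in the fit without pairing, where 1.19% of all genes were called higher and 1.81% lower. With same-numbered arrays of all 3 groups blocked, MT1F and MT1X passed, as given below. The largest differences were those of MT1E (1.08 ± 0.30, adjusted p = 0.0973), MT1X (0.97 ± 0.31, adjusted p = 0.144) and MT1F (0.89 ± 0.24, adjusted p = 0.0766). At an unadjusted p under 0.05 these 3 of 9 members were higher and none lower, against 5.38% and 8.77% of all genes. The median difference of the members was 0.19, beside -0.04 over all genes. The low and high groups were set against the same 3 controls, so their differences from control are not independent of each other.

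The low arrays of MT1F lay 0.40 above the highest control and those of MT1X 0.31 above it, while MT1E overlapped the controls through low 3 and control 2. MT1H also did not overlap, by a gap of 0.03 at values near 1. So 3 of 9 members had low arrays wholly above the controls, as did 7.03% of all genes, and none wholly below, as did 13.0%. Same-numbered arrays of all groups were also blocked, the high arrays included, although no pairing was shown. There MT1F passed at an adjusted p of 0.0350 and MT1X at 0.0456, while MT1E stayed at 0.0551. A block fitted to only the 6 control and low arrays was added once the data had been seen; there MT1F had 0.0318 and MT1X 0.115. Without control 2 the MT1E difference was 1.44 (adjusted p = 0.0178), and without control 3 that of MT1X was 0.53 (adjusted p = 0.160).

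The remaining members differed little in the low group. MT1M had a difference of 0.03 ± 0.16 with a 95% interval of -0.33 to 0.39, and MT2A one of 0.15 ± 0.18 with an interval of -0.25 to 0.54. For MT1G the difference was 0.07 ± 0.20 and for MT1H 0.32 ± 0.16. SLC30A1 had -0.03 ± 0.15 (interval -0.37 to 0.31) and MTF1 0.19 ± 0.19 (interval -0.22 to 0.60).

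Set directly against the low group, the high group had a single called gene among all 22109, which was MT1M (0.00452% of genes called higher, 0.0% lower). MT1M was higher by 1.79 ± 0.18 in the high arrays on the deposited scale, on which its low values may lie at the background (95% interval 1.39 to 2.19, adjusted p = 0.0200), and the high arrays lay 1.47 above the highest low array. MT1E (1.63 ± 0.34, adjusted p = 0.300), MT1F (1.04 ± 0.26, adjusted p = 0.334) and SLC30A1 (0.70 ± 0.17, adjusted p = 0.331) also had high arrays wholly above the low arrays but did not pass. That makes 4 of 9 members, beside 8.77% of all genes. MT1H lay wholly below (-0.44 ± 0.18), as did 16.7% of all genes.

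At an unadjusted p under 0.05 the high against low comparison had MT1M, MT1E, MT1F and SLC30A1 higher and MT1H lower, where 2.56% of all genes were higher and 6.10% lower. For MT1X the 2 treated groups differed by 0.21 ± 0.34 with an interval of -0.55 to 0.96, and for MT2A by 0.14 ± 0.20 with an interval of -0.30 to 0.58. The differences of MT1G (0.37 ± 0.23) and MTF1 (-0.28 ± 0.21) did not pass either. MT1E passed in this comparison without control 3 (adjusted p = 0.0486), and the MT1F difference was 1.46 without high 1 and 0.61 without high 2. The call of MT1M ended over all rows of the table (adjusted p = 0.215) and in 7 of the 8 fits without 1 array, with adjusted p-values from 0.0600 to 0.226, and held without control 3. The difference itself stayed between 1.65 and 1.93 under every alternative that tested it.

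**Figure D3:**
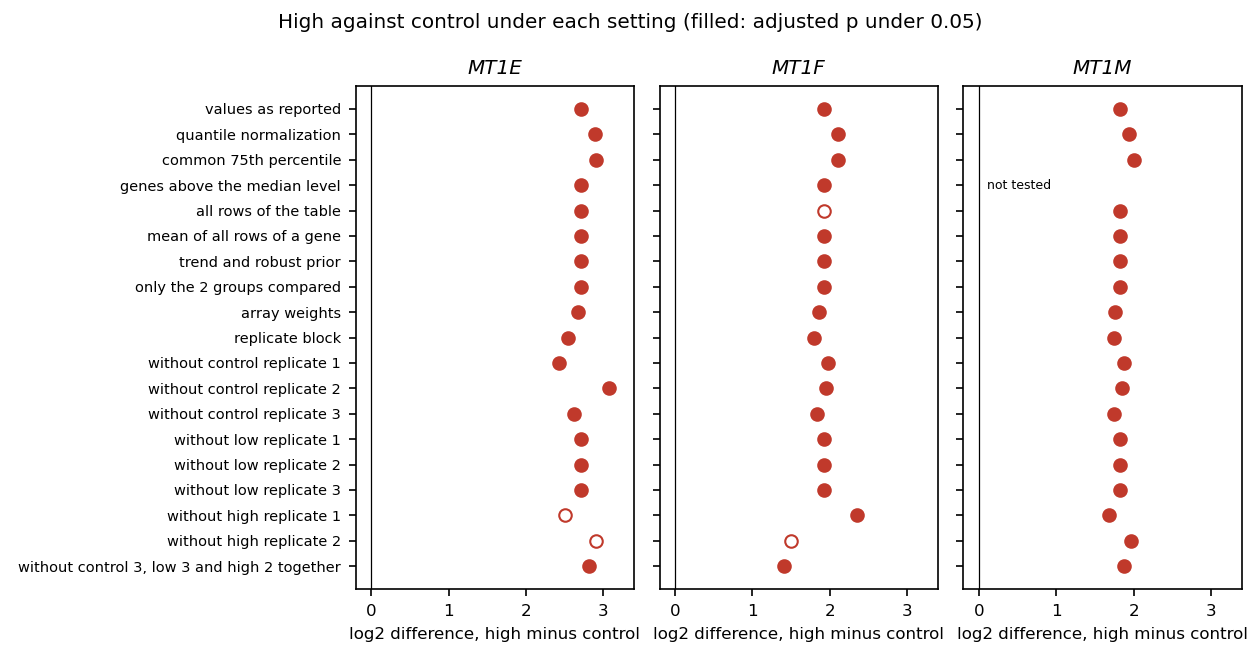
Log2 difference, high minus control (horizontal axis), of MT1E, MT1F and MT1M under the main fit given here and each alternative (rows). The main fit is labelled values as reported. Filled points passed an adjusted p of 0.05. All points lie between 1.41 and 3.07, the calls of MT1E end without either high array, that of MT1F ends without high 2 and over all rows of the table, and MT1M was not tested among genes above the median level.

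Averaged over the 7 metallothionein genes, the deviation from the control mean was -0.01, 0.23 and -0.22 in controls 1 to 3, 0.58, 0.53 and 0.39 in low 1 to 3, and 1.17 and 1.19 in high 1 and 2. The 3 groups did not overlap in this average, but single genes differed from it. MT2A overlapped between all groups, MT1G and MT1M overlapped between low and control, and the high arrays of MT1H lay below the controls. The rows of MT1G and MT1H may hold no signal. The number of genes above their control mean did not set the groups apart: it was 5, 6 and 1 of 7 in the controls, 6, 7 and 6 in the low arrays and 6 in each high array.

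In the human genome the metallothionein genes lie next to each other on chromosome 16. In their order along the chromosome MT4 and MT3 come first, followed by MT2A, the pseudogene MT1L, MT1E, MT1M, MT1JP, MT1A, MT1DP, MT1CP, MT1B, MT1F, MT1G, MT1H, MT1IP and MT1X. Among measured rows the called genes were not all side by side: MT1E and MT1M are neighbours, while MT1F is followed by MT1G and MT1H, which did not pass. Rows of MT1G and MT1H, and of MT1JP (0.69 to 2.05), MT1DP (1.50 to 2.17) and MT1B (0.84 to 1.28) before MT1F, may hold no signal. MT1A had no row. MT1CP, also between MT1M and MT1F, had 6.18 to 7.58 and did not pass. Whether the called genes form one block was therefore not settled. None of the 9 other metallothionein genes and pseudogenes with a row (MT1B, MT1L, MT1JP, MT1DP, MT1IP, MT1CP, MT1P3, MT3 and MT4) was called in any comparison. For high against control 0.425% of all genes were called higher and 0.389% lower, so a list this short would hold few calls. The high against control differences of these 9 genes ran from -0.46 to 0.27. Of these, the pseudogene MT1CP had the largest low against control difference, 0.50 ± 0.27 (adjusted p = 0.443).

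**Figure D4:**
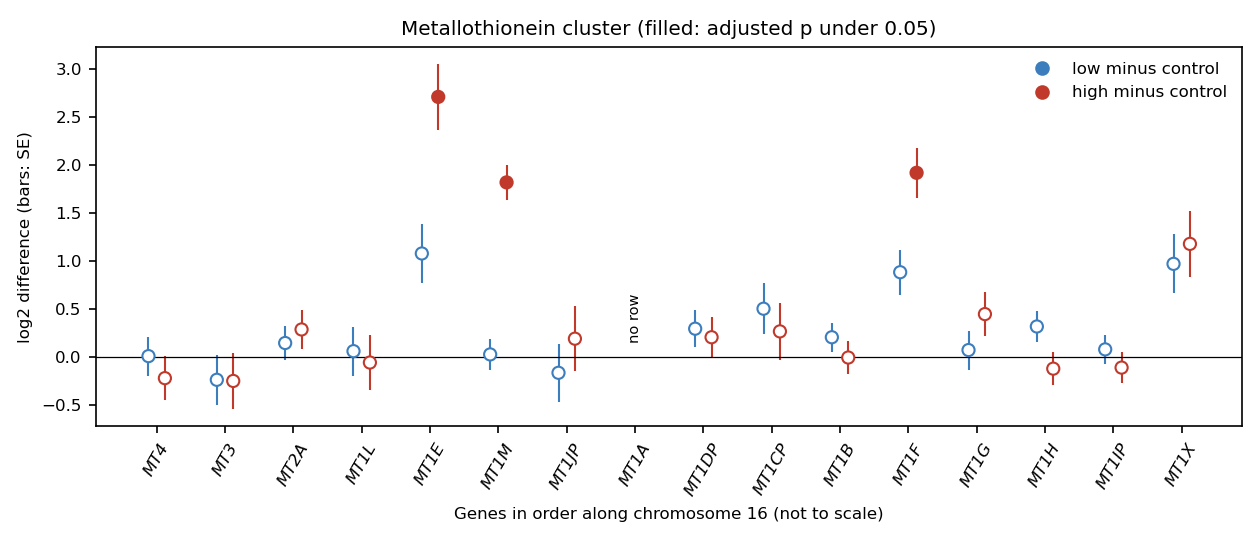
Log2 differences from control (vertical axis; bars are SE) of the metallothionein genes in their order along chromosome 16 (horizontal axis, not to scale), low in blue and high in red, filled where called. MT1E, MT1M and MT1F are the filled points, at 2.71, 1.82 and 1.92 for high minus control, and the measured genes beside them, MT1L, MT1JP, MT1B and MT1G, lie between -0.16 and 0.45 in both comparisons. The rows of those neighbouring genes may lie at the background.

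The promoters of the members are of interest because MTF1 acts through metal response elements close to the transcription start. RefSeq promoter sequence (GRCh38.p14) was at hand for 5 of the 10 listed genes, MT1X, MT2A, MT1H, SLC30A1 and MTF1. The 250 bases before the start are shown 5′ to 3′ on the strand of the gene for the genes whose window held the element, with each match to its core in capitals. The core was searched as TGCACNC and TGCGCNC on both strands. MT1X lies at chr16:56682220-56682469 (plus strand), MT2A at chr16:56608334-56608583 (plus strand), MT1H at chr16:56669564-56669813 (plus strand) and SLC30A1 at chr1:211579162-211579411 (minus strand).
MT1X: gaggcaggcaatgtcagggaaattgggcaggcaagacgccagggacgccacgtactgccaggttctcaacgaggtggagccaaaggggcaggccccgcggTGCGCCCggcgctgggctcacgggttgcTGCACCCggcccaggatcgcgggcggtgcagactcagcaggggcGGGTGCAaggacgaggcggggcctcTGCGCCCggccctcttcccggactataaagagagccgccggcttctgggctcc
MT2A: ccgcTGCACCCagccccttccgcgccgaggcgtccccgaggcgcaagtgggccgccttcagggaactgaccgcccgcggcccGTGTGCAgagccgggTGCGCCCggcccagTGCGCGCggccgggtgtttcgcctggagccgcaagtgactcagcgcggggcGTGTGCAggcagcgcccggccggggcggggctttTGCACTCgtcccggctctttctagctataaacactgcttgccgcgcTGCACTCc
MT1H: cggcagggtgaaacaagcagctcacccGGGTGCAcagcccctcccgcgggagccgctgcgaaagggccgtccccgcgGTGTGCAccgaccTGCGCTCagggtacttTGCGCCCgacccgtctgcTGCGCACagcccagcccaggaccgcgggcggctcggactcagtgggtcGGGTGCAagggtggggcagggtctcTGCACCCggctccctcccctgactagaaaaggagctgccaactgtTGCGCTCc
SLC30A1: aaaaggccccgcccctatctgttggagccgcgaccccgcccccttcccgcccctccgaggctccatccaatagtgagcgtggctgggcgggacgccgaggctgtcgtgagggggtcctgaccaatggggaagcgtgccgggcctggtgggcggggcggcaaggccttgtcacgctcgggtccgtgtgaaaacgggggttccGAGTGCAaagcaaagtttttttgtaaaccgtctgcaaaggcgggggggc

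The MT1H window held 8 matches, that of MT2A 7, that of MT1X 4 and that of SLC30A1 1, and none overlapped. The MTF1 window held none of these letters. Of 35116 human promoter windows of the same length, 24.8% had at least 1 match, 0.370% at least 4, 0.0313% at least 7 and 0.0171% at least 8. For high against control MT1X, with 4 matches, had a difference of 1.18, MT2A, with 7, one of 0.29 and MT1H, with 8, one of -0.12. SLC30A1, with 1 match, had 0.67, and MTF1, with none, had -0.08. None of these genes passed. MT1H may lie at the background, and the called genes MT1E, MT1F and MT1M had no promoter sequence at hand. The core of the antioxidant response element, bound by NRF2 and searched as TGACNNNGC on both strands, occurred once each in the windows of MT1X, MT2A and SLC30A1, and in 10.9% of all windows, without overlap with the capitals. A match is a stretch of letters and not a shown binding site.

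Other zinc transporters did not pass in any comparison, but few genes did at all. Of all genes, 1.19% were called higher and 1.81% lower for low against control, and 0.425% and 0.389% for high against control. High against low had 0.00452% and 0.0%. Lists this short would hold few calls at those shares, so a list without a call says little about its genes. Among the 9 further ZnT exporters, which move zinc out of the cytosol, the high against control differences ran from -0.42 to 0.09 with a median of -0.22, beside -0.12 over all genes. SLC30A6, a transporter of the secretory pathway, had the largest low against control difference (-0.70 ± 0.21, adjusted p = 0.113), at 6.15, 6.05 and 5.49 in the low arrays against 6.62, 6.53 and 6.65 in the controls. The 14 ZIP importers, which bring zinc into the cytosol, had high against control differences of -0.68 to 0.02 and a median of -0.21. SLC39A8, a ZIP that also carries manganese and cadmium, had 2.46, 2.16 and 2.18 in the low arrays and 3.10, 2.91 and 2.74 in the controls. The low arrays lay wholly below the controls, as did those of 13.0% of all genes. These values lay near or below the array medians of 2.68 to 2.83, so background may be part of them. The SLC39A8 difference of -0.65 ± 0.16 missed the threshold (adjusted p = 0.0586). It passed with the replicate block (0.0269), but not with the block fitted to only the control and low arrays (0.0570). SLC39A14, another zinc and manganese importer, named here after its values were seen, lay on the other side: its low against control difference was 0.65 ± 0.27 and its high against low difference -0.91 ± 0.30, and neither passed (adjusted p = 0.292 and 0.454). None of 10 genes of copper handling passed. The copper transporter gene SLC31A2 had the largest low against control difference there, 0.76 ± 0.22 (adjusted p = 0.104), with low arrays between 6.11 and 6.12 and controls between 4.80 and 5.65. CP, the gene of the copper-carrying plasma protein ceruloplasmin, also named after its values were seen, had 4.22 and 3.50 in the high arrays, against 2.44, 2.31 and 2.49 in the low arrays (1.45 ± 0.35, adjusted p = 0.330). Its controls had 2.35, 2.52 and 3.70, and high against control differed by 1.00 ± 0.35 (adjusted p = 0.229).

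Metals also act through heat shock factor and NRF2. Of 6 measured genes of the heat shock arm, 1 was called higher in the high group (0.425% of all genes) and none in the low group (1.19% of all genes). It was HSPA6, the strictly inducible HSP70 gene, with 4.94 and 5.33 in the high arrays against 3.84, 3.15 and 2.63 in the controls (1.93 ± 0.30, adjusted p = 0.0175). Its call ended under 5 of 18 alternatives, among them the removal of high 1, high 2 or control 2, and its value can include the near-identical HSPA7. The low arrays of HSPA6 had 3.53 to 3.95 and a difference of 0.52 ± 0.27 from the controls. High against low, HSPA6 differed by 1.41 ± 0.30 without passing (adjusted p = 0.300). The other measured genes, HSF1, HSPB1, HSPH1, DNAJB1 and BAG3, did not pass in either group. Their differences were 0.12, 0.17, -0.05, 0.17 and 0.04 in the low group. In the high group they were -0.13, -0.20, 0.41, 0.65 and -0.10. HSPA1A, HSPA1B and HSPA8 were not measured.

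Of 8 genes of the oxidative arm 3 were called higher in the low group (1.19% of all genes) and 2 in the high group (0.425% of all genes). HMOX1, which encodes heme oxygenase 1, had 6.99, 7.12 and 6.49 in the low arrays and 6.35 and 6.08 in the high arrays, against 4.47, 4.70 and 3.65 in the controls. Both treated groups of HMOX1 passed (2.60 ± 0.27 for low and 1.95 ± 0.30 for high, adjusted p = 0.00118 and 0.0164), and high against low was -0.65 ± 0.30 (adjusted p = 0.580). SLC7A11, the cystine transporter gene, rose by 0.80 ± 0.18 in the low group (adjusted p = 0.0425) and by 1.05 ± 0.21 in the high group (adjusted p = 0.0464). GCLC, the catalytic subunit of glutathione synthesis, rose by 0.89 ± 0.18 in the low group (adjusted p = 0.0247) and differed by 0.93 ± 0.20 in the high group (adjusted p = 0.0705). The call of HMOX1 in the high group ended under 4 of 18 alternatives and that of SLC7A11 under 9. In the low group the call of SLC7A11 ended under 7 of 19 alternatives, that of GCLC under 5 and that of HMOX1 under none. The other genes of this list, GCLM, TXNRD1, SRXN1, NQO1 and TXN, did not pass in either group. Their differences were 0.48, 0.76, 0.43, 0.59 and 0.10 in the low group. In the high group they were 0.31, 0.25, 0.06, -0.43 and -0.01.

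Glucocorticoid receptor targets were included since MT2A is one of them. Of 7 measured, KLF9, NFKBIA and PER1 were called higher in the low group, where 1.19% of all genes were, by 1.74 ± 0.21, 1.42 ± 0.21 and 1.17 ± 0.21 (adjusted p = 0.00255, 0.00537 and 0.0133), and NFKBIA in the high group, where 0.425% of all genes were, by 1.18 ± 0.24 (adjusted p = 0.0490). The call of NFKBIA in the high group ended under 8 of 18 alternatives, and that of PER1 in the low group under 3 of 19. The other measured targets, DUSP1, TSC22D3, SGK1 and ZBTB16, did not pass in either group. Their differences were 1.30, 0.46, 0.36 and -0.06 in the low group and 1.01, 0.58, -0.18 and -0.23 in the high group. FKBP5 was not measured. MT2A did not pass in either group. Whether the receptor was involved was not tested.

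**Figure D5:**
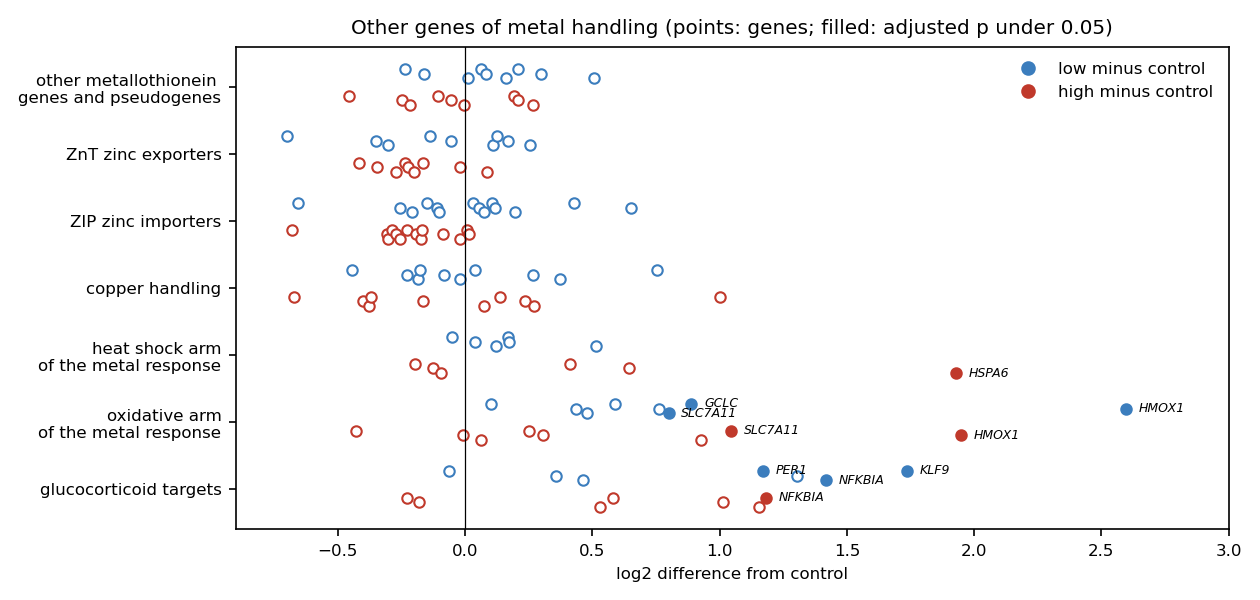
Log2 differences from control (horizontal axis) of genes in 7 further lists (rows; each point a gene, low in blue above high in red); filled points passed an adjusted p of 0.05 and are named. No gene of the zinc and copper transporter lists is filled, where 1.81% of all genes or fewer passed in either direction. HSPA6 is filled in the high group at 1.93, and HMOX1 is filled at 2.60 and 1.95.

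Outside the metallothioneins, the genes whose profile over the 8 arrays was closest to the mean metallothionein profile were ADM, SEL1L3, ABCA5, LYSET and the pseudogene REXO1L2P, among 11047 genes above the median level. Likeness was the root mean square difference of log2 values centred on each gene's mean, which was 0.134 for ADM, 0.150 for SEL1L3, 0.195 for ABCA5 and 0.212 for both LYSET and REXO1L2P. ADM, which encodes the vasodilator peptide adrenomedullin, had 4.78, 4.96 and 4.66 in the controls, 5.27, 5.31 and 5.11 in the low arrays, and 5.81 and 5.58 in the high arrays. All 8 arrays are shared by the profiles compared, and the genes were picked for this likeness, so their differences are given as description only.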

How the data were processed

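Total RNA of 8 MDA-MB-231 samples was hybridised to 1 Affymetrix Human Gene 2.1 ST array each; the sample titles gave the groups. The authors deposited 1 table of 53617 rows, used here as log2 values as deposited; the log base was inferred from their range (highest value 12.10). The submitters' processing notes name the Transcriptome Analysis Console; which version, background correction and normalization it ran is not given in the sources used here. Rows were named through the platform annotation, 23558 carried 1 symbol, and for genes with several rows the row with the highest mean was kept, leaving 22109 genes.

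A model with a mean for each group used the 8 arrays together (R 4.3.3, limma 3.58.1, lmFit and eBayes; 5 residual and 6.00 prior degrees of freedom). P-values were adjusted by Benjamini-Hochberg over all genes of a comparison and called under 0.05; intervals are 95%. Scripts were tested on simulated data. The members, lists and rule for named genes were chosen with earlier results of these data known. The rule named every measured member, list genes called in any comparison, otherwise the gene of a list with the largest low against control difference, and the 5 genes nearest to the mean metallothionein profile.

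Same-numbered control and low arrays deviated together (r = 0.103, 0.153 and 0.203 over genes). These r values do not show pairing, since control 1 was closer to low 2 (r = 0.122). The control array and the low array with the lowest array weights also bear the same number. Whether control and low arrays were paired is therefore unsettled. For control and high arrays r was 0.0940 and -0.0494, and for low and high arrays 0.215 and -0.177. The 2 high arrays deviate from their mean by equal and opposite amounts, so these values cannot show or exclude pairing. No arrays were taken as paired in the main fit, and the replicate block was run only as an alternative. Alternatives were quantile normalization, a common 75th percentile, a level filter, all rows, row means, a trended robust prior, fits of 2 groups alone, array weights, the replicate block and leaving out arrays. Sequences come from the RefSeq promoter table; bases after the start were left out. Protein sequences were not used here.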

Additional observations from a re-analysis of the deposited data

How the results depend on the processing

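Of 486 values of members under alternatives, 446 kept their call or moved by less than the residual SD, 22 passed that had not, 12 no longer passed, 6 moved further without a call, and no called value changed sign. The median of all genes shifted by 0.101 (quantile) and 0.19 (common 75th percentile) in high against control and by 0.123 (common 75th percentile) in high against low. Calls over all 22109 genes rose or fell with the setting. Here "as reported" means the main fit with a mean for each group, not a result of the submitters. For low against control, 264 were higher and 400 lower as reported, and 961 and 1094 with array weights. High against control had 94 and 86 as reported, 235 and 769 with array weights, and 197 and 1031 with the replicate block. With only the groups compared it had 37 and 9. A changed count of member or list calls is therefore not by itself a result about them.

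For low against control, 0 members passed as reported, 1 with quantile normalization, a common 75th percentile, only the groups compared, the replicate block over control and low arrays alone or without the 3 arrays control 3, low 3 and high 2 together, 2 among genes above the median level or with the replicate block, and 3 with array weights; leaving out 1 array gave 0 to 1. For high against control, 3 passed as reported, 5 without the 3 arrays together (which leaves 1 high array, assumed to vary like the other groups) and 1 to 4 without 1 array. For high against low, 1 passed as reported, 0 over all rows or above the median level (where MT1M was not tested), 2 with only the groups compared and 0 to 2 without 1 array. The members' median was 0.19 (low), 0.67 (high) and 0.37 (high against low), and 0.54 and 0.92 for low and high above the median level, where 6 members remained; without 1 array it ran from 0.17 to 0.27, 0.60 to 0.74 and 0.29 to 0.59.

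In the low group, quantile normalization and array weights called 1 ZnT gene and 1 ZIP gene each, and 1 and 2 copper genes, and the replicate block and the removal of 3 arrays called 1 ZIP gene each. The oxidative list had 5 calls with quantile normalization, array weights or the removal of 3 arrays and 1 over all rows, against 3 as reported, and glucocorticoid targets had 5 with array weights, against 3. In the high group the replicate block, array weights and the removal of 3 arrays called 1 ZIP gene and 2 copper genes each, and the block 1 other metallothionein gene. Over all rows or with only the groups compared, the heat shock, oxidative and glucocorticoid lists had 0 calls. Heat shock had 2 with quantile normalization or a common 75th percentile and 3 without 3 arrays, oxidative 4 without 3 arrays, and glucocorticoid 2 under the other 6 settings that moved it. High against low, 1 copper gene was called under 4 settings (groups alone, array weights, block, removal of 3 arrays), 1 heat shock gene with the groups alone, and 1 oxidative gene with the block or the removal of 3 arrays. Leaving out 1 array gave 0 to 1, 0 to 2, 0 to 4, 1 to 4 or 2 to 3 calls in these lists. For the lists the cause was not tested. With 2 or 3 arrays a group and no measure of background, changes of the dim members MT1G and MT1H, and of MT1M outside the high group, may not be detectable.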
